A study of Homo sapiens with 11 samples.

Results

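Polycomb repressive complex 2 (PRC2) is the histone methyltransferase that places the H3K27 methyl marks of silent genes, and its RNA is described here in small cell lung carcinoma lines and lung fibroblasts. The genes described are 10 of the 57815 listed in the RNA tables. They were chosen by symbol, with earlier results of these data known: EZH2, EZH1, SUZ12, EED, RBBP4, RBBP7, JARID2, PHF1, MTF2 and PHF19. Small cell lung carcinoma is represented by the established lines DMS153 and H209, and lung tissue without cancer by the fibroblast line MRC5. All 3 lines were grown untreated in the same medium with fetal bovine serum, and no genetic change or agent is named in the labels. RNA-seq covers DMS153 with 3 libraries, H209 with 2 and MRC5 with 3, and Hi-C, which maps chromosome folding, covers each line with 1. The RNA titles shorten the name DMS153 to DM153, and the cell line field decided. Each group is 1 cell line, so a difference between groups is a difference between lines and not between carcinoma and normal lung. A fibroblast line is also not the cell of origin of a neuroendocrine carcinoma.

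PRC2 has a catalytic subunit, EZH2 or its paralog EZH1, on a scaffold of SUZ12. EED binds the methylated H3K27 that the enzyme has made, and RBBP4 or RBBP7 bind histones. Accessory proteins split the complex into 2 forms. One form carries a Polycomb-like protein (PHF1, MTF2 or PHF19), which helps to recruit it to CpG islands, and the other carries JARID2 with AEBP2. EZH2 is known to be abundant in dividing cells, where E2F transcription factors drive it after RB is inactivated, while EZH1 is known to persist in resting cells. Small cell lung carcinoma is known for loss of RB and for high EZH2. PRC1, a separate complex, ubiquitinates H2A and binds H3K27 trimethylation through its CBX subunits.

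The libraries carried the markers of their labels. INSM1, a neuroendocrine transcription factor, had a mean of 196 FPKM in DMS153 and 294 in H209 and was listed at 0 in MRC5, where FPKM is the deposited level, fragments scaled by transcript length and by the mapped fragments of the library. EPCAM, an epithelial adhesion protein, stood at 290, 280 and 0.11 FPKM in DMS153, H209 and MRC5. Fibroblast genes ran the other way, with COL1A1 at 1.02, 0.789 and 1171 FPKM and VIM at 0.101, 0.765 and 1764 FPKM in the same order. Summed markers of leukocytes, endothelium and red cells reached at most 1.61 FPKM in any library. Between 13425 and 16580 genes reached 1 FPKM per library, fewest in MRC5. MicroRNA loci held 39.9% to 44.1% of the summed FPKM in DMS153 and at most 0.045% elsewhere, and mitochondrial genes held 4.42% to 6.08% in DMS153, 12.8% to 13.2% in H209 and 11.2% to 12.5% in MRC5. The files hold no counts. Depth estimated from the steps of low values ran from 0.946 to 1.65 times that of MRC5 replicate 1, and the deposited intervals of the 80 member values spanned 2.44% to 12.6% of the value on either side.

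Promoters are shown for 6 of these genes because the RNA results turn on them: EZH2, RBBP4, MTF2, PHF19 and JARID2 were called higher in both carcinoma lines, and PHF1 was not. Each sequence is 250 bases from RefSeq on GRCh38.p14, ending 15 bases after the most upstream annotated start, written 5′ to 3′ on the strand of the gene. Capitals mark a word of the E2F motif on either strand. The words searched were TTCCCGC, its variant TTCGCGC, the word TTGCCGC, and the word TTGGCGC. In MTF2 and PHF19 the capitals read GCGGGAA, which is the first of these words on the opposite strand. The positions are chr7:148884277-148884526, minus strand for EZH2, chr1:32650973-32651222, plus strand for RBBP4 and chr1:93079048-93079297, plus strand for MTF2. They are chr9:120877174-120877423, minus strand for PHF19, chr6:15245834-15246083, plus strand for JARID2 and chr6:33410779-33411028, plus strand for PHF1.
EZH2: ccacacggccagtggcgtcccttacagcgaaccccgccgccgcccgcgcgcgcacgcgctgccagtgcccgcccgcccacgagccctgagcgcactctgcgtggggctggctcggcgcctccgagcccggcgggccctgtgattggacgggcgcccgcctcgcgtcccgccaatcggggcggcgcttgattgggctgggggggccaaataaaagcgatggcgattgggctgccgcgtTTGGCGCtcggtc
RBBP4: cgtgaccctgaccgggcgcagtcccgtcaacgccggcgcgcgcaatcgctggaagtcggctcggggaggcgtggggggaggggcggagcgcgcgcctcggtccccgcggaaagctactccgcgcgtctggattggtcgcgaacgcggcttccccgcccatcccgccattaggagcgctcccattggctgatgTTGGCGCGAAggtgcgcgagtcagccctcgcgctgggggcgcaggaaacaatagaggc
MTF2: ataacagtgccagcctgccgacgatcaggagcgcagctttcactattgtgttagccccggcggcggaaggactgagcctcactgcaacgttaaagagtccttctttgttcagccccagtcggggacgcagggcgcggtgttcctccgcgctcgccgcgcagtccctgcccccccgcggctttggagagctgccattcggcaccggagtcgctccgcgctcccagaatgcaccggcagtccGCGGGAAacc
PHF19: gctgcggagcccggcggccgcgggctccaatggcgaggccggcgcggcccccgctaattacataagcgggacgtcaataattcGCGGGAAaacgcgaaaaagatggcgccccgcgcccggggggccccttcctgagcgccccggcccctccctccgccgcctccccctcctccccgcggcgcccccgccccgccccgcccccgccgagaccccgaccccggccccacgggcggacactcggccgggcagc
JARID2: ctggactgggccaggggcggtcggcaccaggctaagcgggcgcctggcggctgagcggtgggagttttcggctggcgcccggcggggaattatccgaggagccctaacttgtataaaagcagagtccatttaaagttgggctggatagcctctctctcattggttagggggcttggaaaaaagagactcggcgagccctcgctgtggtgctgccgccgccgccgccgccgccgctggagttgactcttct
PHF1: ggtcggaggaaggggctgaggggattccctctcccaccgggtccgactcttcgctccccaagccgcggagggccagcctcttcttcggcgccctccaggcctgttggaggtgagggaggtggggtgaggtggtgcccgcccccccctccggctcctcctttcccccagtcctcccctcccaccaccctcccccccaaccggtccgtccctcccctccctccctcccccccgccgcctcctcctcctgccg

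EZH2, MTF2, RBBP4 and PHF19 each held an E2F word, and JARID2 and PHF1 held none in this window. In EZH2 the word began 3 bases after the start and in MTF2 6 bases after it. RBBP4 had a pair of overlapping words, 43 and 40 bases before the start, and PHF19 had 1 word 152 bases before it. Over the 10 genes, 6 had an E2F word in the 300 bases from 250 before to 50 after the most upstream start, among them EZH1 and SUZ12. Of 35116 RefSeq promoters, 13.0% had one. When any annotated start was counted, 7 of the 10 genes had one, beside 15.3% of 27305 RefSeq genes. The share was 20.7% of the genes with promoters in the GC range of the 10 (51.2% to 79.6%). The word CCAAT, searched on both strands, was present in 7 of the 10 and in 39.7% of all genes, and EZH2 had 4 copies, at 94, 66, 47 and 13 bases before the start. The motifs were chosen after RNA results were known. A match describes letters and shows no binding, and no factor was measured here.

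Of the 10 genes, 5 were called higher in both carcinoma lines than in the fibroblasts, led by EZH2, and none was called lower in either. A gene was called when limma on log2(FPKM + 1) gave a Benjamini-Hochberg adjusted p below 0.05 over 19066 tested genes, with a difference of 1 or more in log2. All 10 genes passed the filter of 1 FPKM in 2 libraries. In DMS153 against MRC5, 6 of 10 were called higher and 0 lower, where 34% of all tested genes were called higher and 16.4% lower. In H209 against MRC5, 7 of 10 were called higher and 0 lower, against 33% and 14.9% of all tested genes. EZH2, RBBP4, JARID2, MTF2 and PHF19 were called in both comparisons. EZH1 was called in DMS153 and SUZ12 and EED in H209, and none of these 3 was called between the carcinoma lines. Both comparisons use the same 3 MRC5 libraries, so they are not independent of each other. The median log2 fold change of the 10 was 1.26 in DMS153 and 1.54 in H209, beside 0.44 and 0.46 over all tested genes. Without the fold minimum, 9 and 10 of the 10 had an adjusted p below 0.05, as did 86.7% and 83.1% of all genes. The libraries did not overlap for 9 genes in DMS153 and 10 in H209, as for 87.3% and 88.1% of all genes, so separation of the libraries was the rule in these data. In bulk RNA, more cells with a transcript and more of it per cell cannot be told apart. Nothing in the labels says that replicates came from separate cultures, and the p-values then measure only the spread between these libraries.

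**Figure D1:**
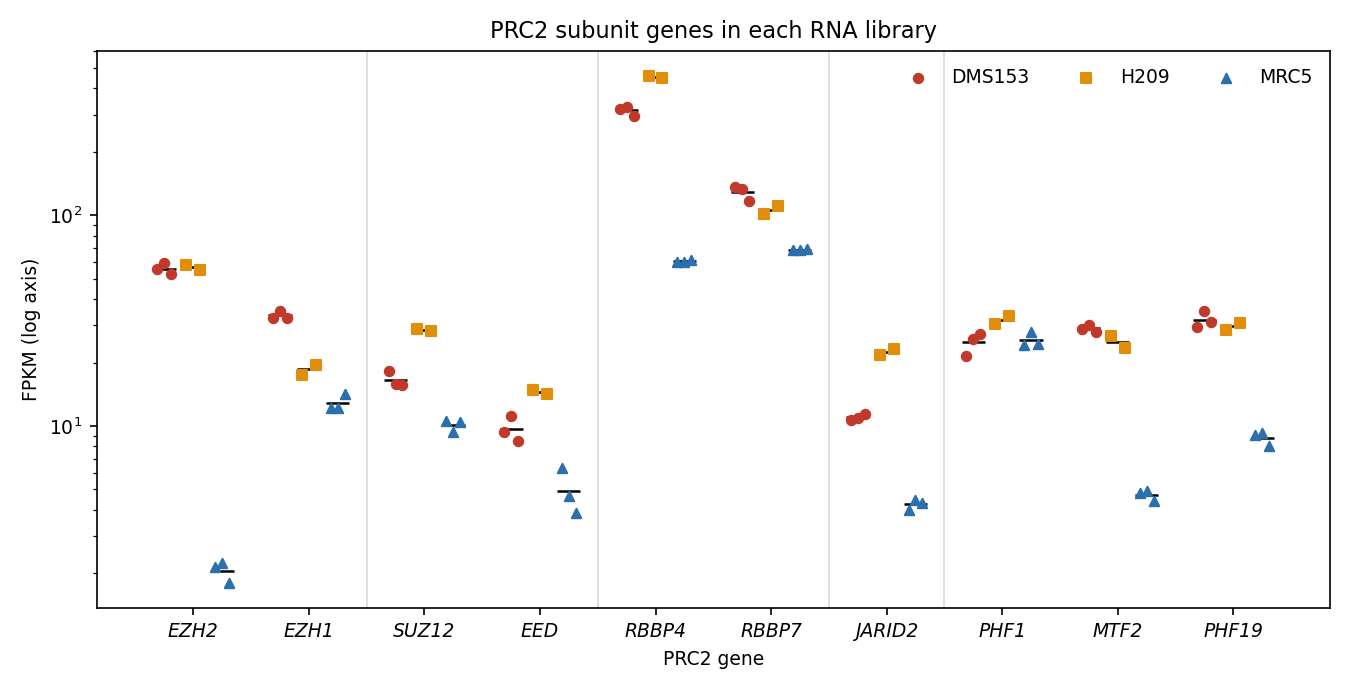
FPKM (log axis) of the 10 PRC2 genes in each of the 8 RNA libraries, with circles for DMS153, squares for H209, triangles for MRC5 and bars for line means. EZH2 stands at 52.5 to 59.4 FPKM in the carcinoma libraries and at 1.81 to 2.23 in MRC5, while the PHF1 libraries of DMS153 and MRC5 overlap.

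Of the catalytic subunits, EZH2 showed the widest difference from MRC5 of the 10 genes in both carcinoma lines, and EZH1 a smaller one. EZH2 (ENSG00000106462.6, chr7:148504475-148581413 in hg19), the methyltransferase of dividing cells, measured 55.5, 59.4 and 52.5 FPKM in DMS153, 58.2 and 55.2 in H209, and 2.14, 2.23 and 1.81 in MRC5. Every carcinoma library lay far above every fibroblast library, and the carcinoma lines overlapped. The mean ratio was 27.1 in DMS153 and 27.5 in H209. On the log2 scale EZH2 was higher by 4.22 (SE 0.08, adjusted p = 9.0e-11) in DMS153 and by 4.24 (SE 0.09, adjusted p = 2.9e-10) in H209, and these differences exceeded those of 97.1% and 98.2% of tested genes. Between the carcinoma lines the difference was -0.02 (SE 0.09, adjusted p = 0.82).

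EZH1 (ENSG00000108799.8, chr17:40852293-40897071), the paralog that can take the place of EZH2 in the complex, measured 32.5, 35.2 and 32.7 FPKM in DMS153. It measured 17.5 and 19.5 in H209 and 12.2, 12.1 and 14.1 in MRC5. The 3 lines did not overlap, with DMS153 highest and MRC5 lowest. EZH1 was called higher in DMS153 than in MRC5, by 1.32 (SE 0.08, adjusted p = 2.2e-07). The difference of 0.50 (SE 0.09, adjusted p = 0.00054) in H209 was under the fold minimum. DMS153 exceeded H209 by 0.82 (SE 0.09, adjusted p = 3.1e-05), also under it. As deposited, all carcinoma libraries held more EZH1 than the fibroblast libraries, but the H209 difference was -0.21 under median ratio scaling and 0.16 (adjusted p = 0.10) under quantile normalization.

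The core partners of the enzyme differed less. SUZ12 (ENSG00000178691.6, chr17:30264037-30328064), the scaffold, measured 18.2, 15.8 and 15.6 FPKM in DMS153, 29.0 and 28.3 in H209 and 10.6, 9.34 and 10.4 in MRC5. H209 stood apart on the high side and no line overlapped another. SUZ12 was called higher in H209, by 1.42 (SE 0.09, adjusted p = 3.5e-07), and its difference in DMS153 was 0.66 (SE 0.08, adjusted p = 3.4e-05), under the fold minimum. SUZ12P, a transcribed pseudogene copy of SUZ12, was listed at 24.2, 26.6 and 24.9 FPKM in DMS153, 28.4 and 26.6 in H209 and 6.63, 5.79 and 5.64 in MRC5. How reads that fit both copies were shared is not stated in the sources used here, so the level of SUZ12 is uncertain.

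EED (ENSG00000074266.13, chr11:85955586-85989855), the reader of H3K27 trimethylation, measured 9.38, 11.1 and 8.46 FPKM in DMS153, 14.8 and 14.2 in H209 and 6.30, 4.63 and 3.85 in MRC5. The lines did not overlap, but the MRC5 libraries were spread widely around their mean. EED was called higher in H209 by 1.41 (SE 0.17, adjusted p = 3.7e-05), while the difference of 0.86 (SE 0.15, adjusted p = 0.00046) in DMS153 was under the fold minimum. Without MRC5 replicate 1, the highest fibroblast library for EED, the DMS153 difference was 1.02 and was called.

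The histone-binding subunits were the most abundant RNAs of the complex. RBBP4 (ENSG00000162521.14, chr1:33116743-33151812) measured 319, 327 and 297 FPKM in DMS153, 458 and 451 in H209 and 60.3, 59.9 and 61.1 in MRC5. The fibroblast libraries were tightly grouped and every carcinoma library lay above them, with H209 above DMS153. RBBP4 was higher by 2.36 (SE 0.06, adjusted p = 5.8e-10) in DMS153 and 2.89 (SE 0.07, adjusted p = 5.2e-10) in H209, and both were called. RBBP7 (ENSG00000102054.13, chrX:16857406-16888537), its paralog, measured 136, 134 and 117 FPKM in DMS153, 101 and 110 in H209 and 68.4, 68.7 and 69.0 in MRC5. Its libraries did not overlap between lines either, but its differences from MRC5, 0.89 (SE 0.07) in DMS153 and 0.61 (SE 0.08) in H209, were under the fold minimum. Both proteins also serve other chromatin complexes, such as histone deacetylase and chromatin assembly complexes, so their RNA is not that of PRC2 alone. RBBP4 shares 6306 bases with the locus of SYNC, which was at 34.2 to 58.1 FPKM in the carcinoma lines and at 20.9 to 23.1 in MRC5. RBBP7 shares 5237 bases with TXLNG, at most 5.11 FPKM in any library. The strand of the libraries is not given in the sources used here, so reads in shared bases cannot be assigned, and pseudogenes of RBBP4 were at most 0.286 FPKM.

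JARID2 (ENSG00000008083.9, chr6:15246527-15522252), which marks the second form of the complex and helps it bind ubiquitinated H2A, measured 10.7, 10.9 and 11.4 FPKM in DMS153. It measured 21.7 and 23.1 in H209 and 4.00, 4.47 and 4.30 in MRC5. Within each line the libraries lay close together, and the 3 lines stood clearly apart. JARID2 was called higher in DMS153, by 1.19 (SE 0.07, adjusted p = 1.5e-07), and in H209, by 2.16 (SE 0.08, adjusted p = 7.3e-09). Its difference of -0.96 (SE 0.08, adjusted p = 3.8e-06) between DMS153 and H209 came nearest to a call of any of the 10 genes. The antisense locus JARID2-AS1 was at most 0.284 FPKM.

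The Polycomb-like genes went different ways. MTF2 (ENSG00000143033.13, chr1:93544792-93604638) measured 28.9, 30.3 and 27.9 FPKM in DMS153, 26.7 and 23.6 in H209 and 4.78, 4.89 and 4.42 in MRC5. All carcinoma libraries lay above all fibroblast libraries, and MTF2 was higher by 2.40 (SE 0.07, adjusted p = 2.0e-09) in DMS153 and 2.196 (SE 0.08, adjusted p = 1.1e-08) in H209. PHF19 (ENSG00000119403.9, chr9:123617977-123639606) measured 29.6, 35.1 and 31.1 FPKM in DMS153, 28.6 and 30.9 in H209 and 9.10, 9.22 and 8.04 in MRC5. It was called higher by 1.75 (SE 0.08, adjusted p = 4.6e-08) and 1.65 (SE 0.09, adjusted p = 1.9e-07), and its carcinoma lines overlapped. PHF1 (ENSG00000112511.13, chr6:33378176-33384230), the founding member of the group, measured 21.6, 26.0 and 27.5 FPKM in DMS153, 30.4 and 33.3 in H209 and 24.3, 27.9 and 24.5 in MRC5. DMS153 and MRC5 overlapped and H209 lay above both. The PHF1 difference was -0.04 (SE 0.10, adjusted p = 0.74) in DMS153 and 0.31 (SE 0.11, adjusted p = 0.028) in H209, and neither was called. Relative to the median of all genes these differences were -0.47 and -0.16. CUTA overlaps the last 12 bases of PHF1 and was at 76.4 to 148 FPKM.

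**Figure D2:**
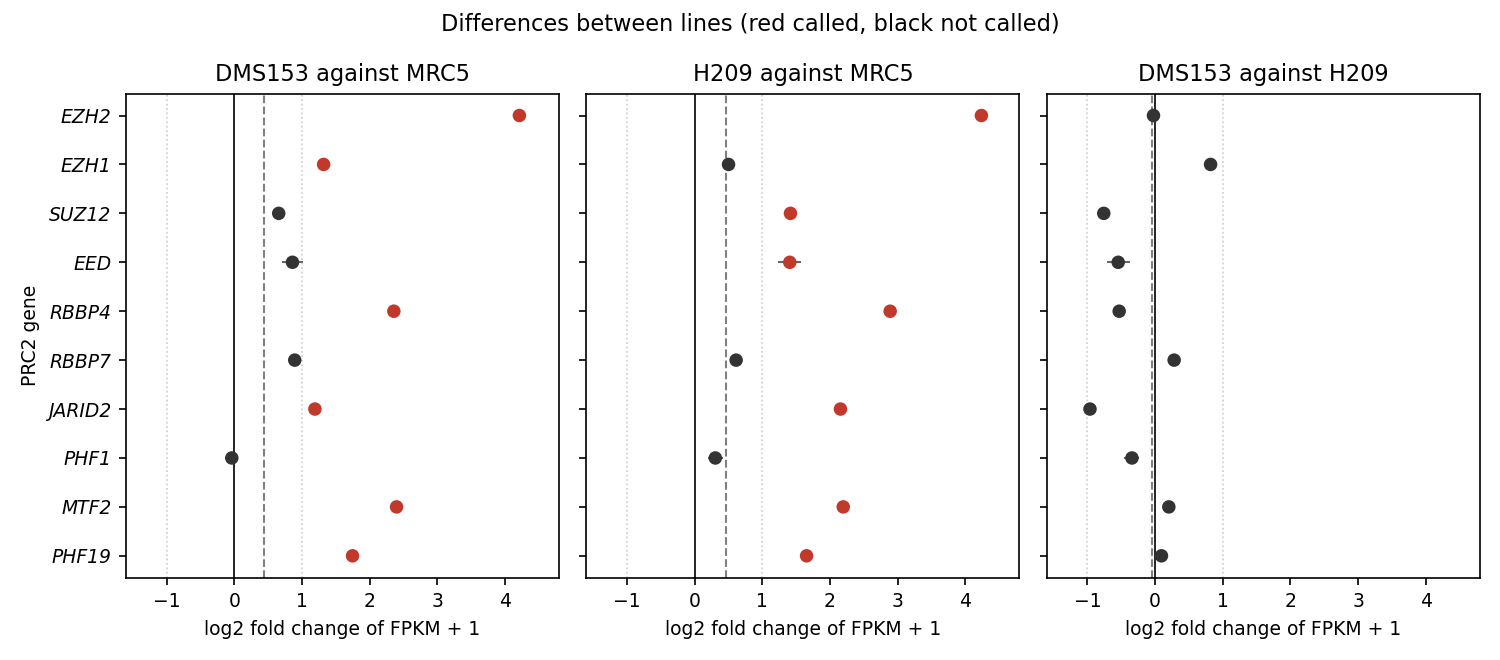
Difference in log2(FPKM + 1) of each PRC2 gene for the 3 comparisons, with 1 SE on either side where it exceeds the point, red for called and black for not called. Dotted lines mark the fold minimum of 1 and dashed lines the median of all tested genes, and no gene is red in DMS153 against H209.

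As deposited, no gene of the complex was called between the carcinoma lines, although their libraries were separated for 8 of its genes. In DMS153 against H209, 0 of 10 genes were called higher and 0 lower, beside 13.8% and 13.4% of all tested genes. At an adjusted p below 0.05 alone, limma gave 8 of the 10, as for 73.5% of all genes. DMS153 libraries lay above all H209 libraries for EZH1, RBBP7 and MTF2, and below them for SUZ12, EED, RBBP4, JARID2 and PHF1. EZH2 and PHF19 overlapped, so 8 of 10 did not overlap, where 82.3% of all genes did not. The MTF2 difference of 0.20 (SE 0.08) had an adjusted p of 0.047, and the RBBP4 difference was -0.53 (SE 0.07, adjusted p = 7.5e-05). With a pseudocount of 0.1 or 0.01, or without H209 replicate 1, JARID2 was called lower in DMS153, at -1.02, -1.02 and -1.01. With FPKM rescaled to a common sum per library (TPM scaling), JARID2 was at -1.61 (limma adjusted p = 8.4e-08). SUZ12, EED and RBBP4 were called lower as well. That scaling put the median of all genes at -0.60, with 6319 genes called lower in DMS153 and 1782 higher, so lower calls were common there.

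The order of the genes by level, which FPKM allows because it is scaled by length, differed at both ends. In MRC5, EZH2 was last, at 2.06 FPKM, below JARID2 at 4.26, MTF2 at 4.70 and EED at 4.93, which overlapped as neighbours. RBBP7 led there with 68.7, ahead of RBBP4 with 60.4 and PHF1 with 25.6. In both carcinoma lines RBBP4 led, followed by RBBP7 and EZH2 without overlap. Below them in DMS153 came EZH1 at 33.5, PHF19 at 31.9 and MTF2 at 29.1, where neighbours overlapped, then PHF1, SUZ12, JARID2 and EED, the last 2 overlapping. In H209, PHF1 at 31.8, PHF19 at 29.8 and SUZ12 at 28.6 overlapped as neighbours, followed by MTF2, JARID2, EZH1 and EED. EZH2 was thus lowest of the 10 in MRC5 and the third in both carcinoma lines.

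Because ratios of genes within 1 library do not change when the library is scaled by 1 factor, the balance between paralogs was compared directly. Quantile normalization is not such a scaling and can change these ratios. EZH2 made up 62.5% ± 0.772 (SD, n = 3) of the summed FPKM of EZH1 and EZH2 in DMS153, 75.3% ± 2.11 (n = 2) in H209 and 13.9% ± 2.26 (n = 3) in MRC5. The EZH2 to EZH1 ratio was 1.71, 1.69 and 1.60 in DMS153, 3.32 and 2.82 in H209 and 0.175, 0.184 and 0.128 in MRC5. EZH2 was therefore the more abundant RNA in every carcinoma library, and EZH1 in every fibroblast library. Among the Polycomb-like genes, PHF1 held 65.5% ± 1.59 in MRC5 and 29.0% ± 2.47 in DMS153 and 36.7% ± 1.74 in H209. MTF2 held 12.0%, 33.9% and 29.0%, and PHF19 22.5%, 37.1% and 34.3%, in MRC5, DMS153 and H209. Fibroblasts were thus rich in PHF1 among these genes, and the carcinoma lines held all 3 at similar levels. RBBP4 made up 46.8% ± 0.222 of RBBP4 and RBBP7 in MRC5, 71.0% ± 0.788 in DMS153 and 81.1% ± 1.15 in H209.

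The balance of EZH2 with its scaffold was highest in DMS153, then in H209, and lowest in MRC5. The EZH2 to SUZ12 ratio was 3.05, 3.75 and 3.36 in DMS153, 2.01 and 1.95 in H209 and 0.203, 0.239 and 0.173 in MRC5. The ratio of MTF2 to JARID2, one marker of each form of the complex, was 2.70, 2.77 and 2.46 in DMS153, 1.23 and 1.02 in H209 and 1.19, 1.10 and 1.03 in MRC5. DMS153 stood apart in that ratio, and H209 and MRC5 overlapped (log2 difference 0.02, exact p = 0.8). Over 6 ratios and 3 comparisons, 17 of 18 had no overlap between libraries. The 2-sided exact permutation test gave p = 0.1 for each of those, the smallest these group sizes allow, and 0.106 after adjustment over the 18, so none can pass 0.05.

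**Figure D3:**
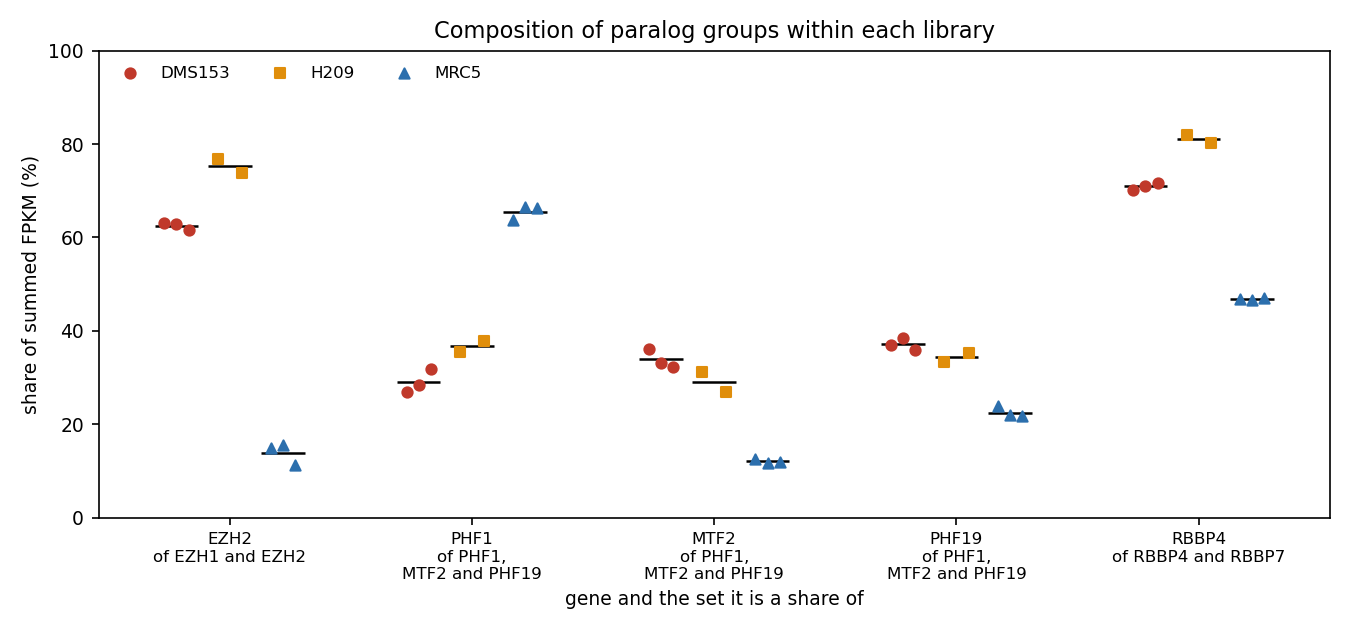
Share (%) of each named gene in the summed FPKM of its paralog group, by library, with bars for line means. EZH2 holds 11.3% to 15.5% in MRC5 and 61.6% to 76.8% in the carcinoma libraries, and PHF1 holds 63.6% to 66.4% and 26.9% to 37.9%.

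How the libraries are scaled sets how many genes of the complex count as higher. As deposited, 67.5% of the called genes were higher in DMS153 than in MRC5 (6489 higher, 3123 lower), and the median of all genes lay at 0.44. With median ratio scaling, which brings that median to 0, the share was 49.0% (4653 higher, 4849 lower), and with quantile normalization 51.2%. With TPM scaling the share was 56.1%, and with the sum taken without small RNA and mitochondrial genes 75.5%. The genes of the complex called higher in DMS153 numbered 4, 5, 4 and 8 under these scalings in that order, against 6 as deposited. Of all 19066 tested genes, 4653, 4558, 5651 and 7660 were called higher in that order, against 6489 as deposited. In the complex, 0 genes were called lower under any. EZH2, RBBP4, MTF2 and PHF19 were called under all 5. EZH1 was not called under median ratio or TPM scaling (0.72 and 0.92), nor JARID2 under these and quantile normalization (0.65, 0.85 and 0.69). EED and RBBP7 were called without small RNA and mitochondrial genes (1.13 and 1.21). Small RNA held more of the summed FPKM in DMS153. TPM scaling divides by that sum, and the last scaling leaves small RNA out together with mitochondrial genes. The part of small RNA alone in these shifts was not tested.

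In H209 against MRC5 the deposited values gave 68.9% higher among called genes (6300 higher, 2839 lower), with a median of 0.46. The share was 45.3% under median ratio scaling, 53.7% under quantile normalization, 74.7% under TPM scaling and 74.9% without small RNA and mitochondrial genes. The complex had 4, 6, 7 and 7 genes called higher in that order, against 7 as deposited. Of all 19066 tested genes, 3905, 4351, 7939 and 7262 were called higher in that order, against 6300 as deposited. EZH2, RBBP4, JARID2 and MTF2 were called under all 5 scalings, so EZH2, RBBP4 and MTF2 were the genes called in both carcinoma lines under each scaling. Under median ratio scaling, SUZ12 (0.70), EED (0.73) and PHF19 (0.94) were not called, and EZH1 (-0.21), RBBP7 (-0.14) and PHF1 (-0.43) took the other sign. In DMS153 against H209 the share of higher calls was 50.7% as deposited and 22.0% under TPM scaling, where the median of all genes lay at -0.60 and SUZ12, EED, RBBP4 and JARID2 were called lower. EZH2 lay 3.60 to 3.94 above the median of all genes in both comparisons with MRC5 under every one of these scalings.

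**Figure D4:**
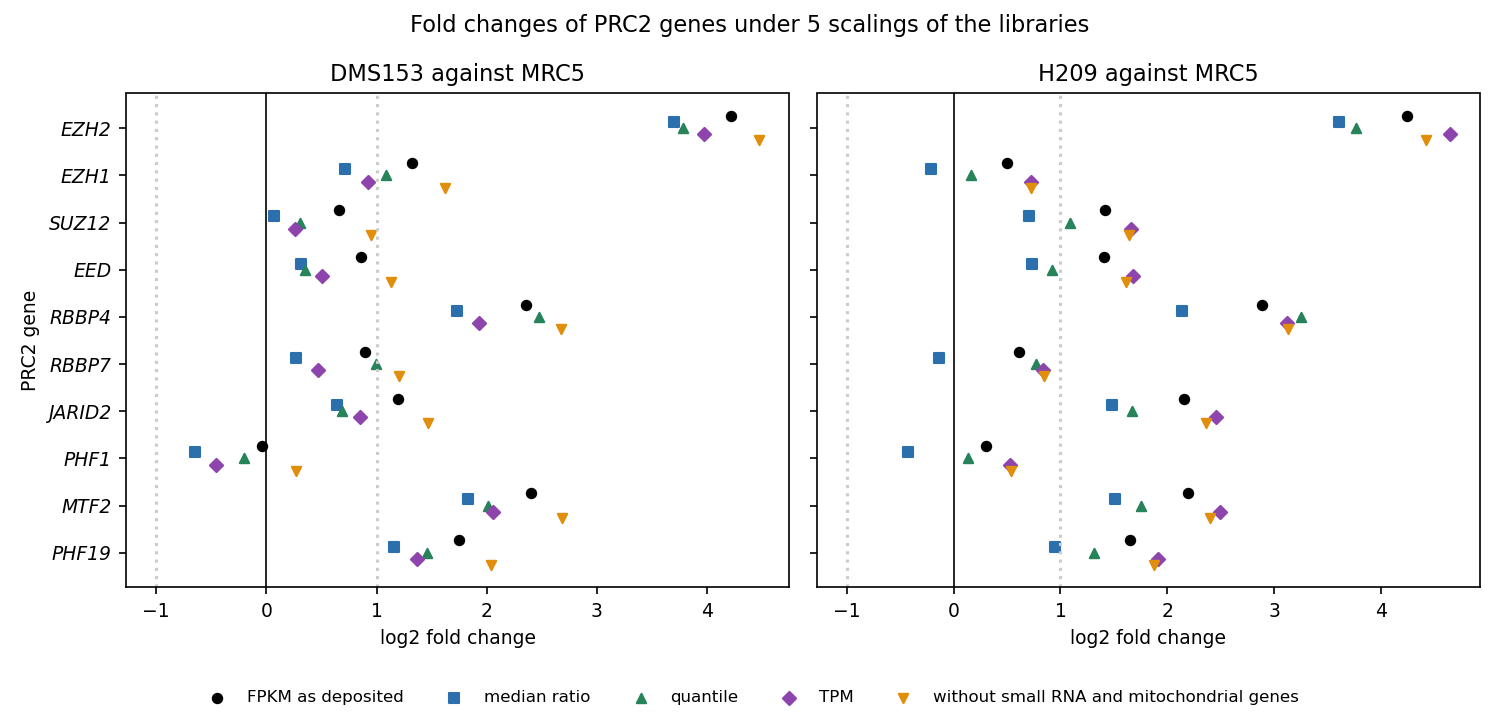
log2 fold change of each PRC2 gene in DMS153 and in H209 against MRC5 under 5 scalings, with dotted lines at the fold minimum of 1. EZH2 lies between 3.60 and 4.64 under all of them, while EZH1, RBBP7 and PHF1 cross 0 in H209 under median ratio scaling.

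Other accessory genes of PRC2 were mixed. Of 6 listed, 5 were tested, and 3 were called higher in DMS153 and 1 in H209 against MRC5, with none lower. Among all tested genes, 34% and 33% were called higher and 16.4% and 14.9% lower. AEBP2, the partner of JARID2, stood at 15.3 ± 0.959, 15.9 ± 0.0866 and 16.7 ± 1.61 FPKM (SD) in DMS153, H209 and MRC5 and was not called. C17orf96, now named EPOP and a partner of the Polycomb-like form, stood at 3.71, 2.07 and 0.282 FPKM and was called higher in both (1.88 and 1.26). LCOR, at 26.1, 13.1 and 8.46 FPKM, was called in DMS153 (1.54) and not in H209 (0.60). CXorf67, now named EZHIP and an inhibitor of the complex, was listed at 0 in DMS153 and MRC5 and at 0.0545 FPKM in H209, and was not tested. The list had a median of 1.18 in DMS153 and 0.61 in H209, beside 0.44 and 0.46 over all genes. Under median ratio scaling 1 and 0 of its genes were called higher, beside 4653 and 3905 of all 19066 tested genes.

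PRC1, which reads the mark of PRC2, had 15 of 29 genes called higher and 0 lower in DMS153, and the same counts in H209, with medians of 1.04 and 1.02. Over all tested genes, 34% and 33% were called higher and 16.4% and 14.9% lower, with medians of 0.44 and 0.46. CBX2, a subunit that binds H3K27 trimethylation, stood at 16.3, 24.3 and 0.732 FPKM in DMS153, H209 and MRC5. AUTS2, which joins a PRC1 form known for activation, stood at 94.5, 54.0 and 0.767 FPKM. SCML2 was called higher in DMS153, at 5.40 FPKM beside 0.786 in MRC5, and was at 0.00660 in H209. Between the carcinoma lines, 3 of the 29 were called higher in DMS153, SCML2 and CBX7 (9.77 against 4.26 FPKM) among them, and 2 lower, PCGF1 (10.02 against 25.02) and PHC2 (74.5 against 151). The shares over all tested genes there were 13.8% and 13.4%. The PRC1 counts depended on scaling: median ratio scaling gave 6 higher and 1 lower in DMS153 and 3 higher and 3 lower in H209. Of all 19066 tested genes, it called 4653 higher and 4849 lower in DMS153, and 3905 and 4724 in H209.

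Enzymes that remove the marks, the H3K27 demethylases and H2A deubiquitinases with their partners, had 6 of 10 called higher in DMS153 and 4 in H209, with none lower. Over all tested genes, 34% and 33% were called higher and 16.4% and 14.9% lower, with medians of 0.44 and 0.46. ASXL3, a partner of the deubiquitinase BAP1, was at 9.74 and 12.8 FPKM in DMS153 and H209 and at 0.00508 in MRC5. USP21 was at 36.4, 35.8 and 7.77 FPKM in DMS153, H209 and MRC5. ASXL2 (22.7 against 8.43 FPKM) and MYSM1 (17.99 against 6.69) were called higher in DMS153 than in H209, and USP3 (12.0 against 26.2) lower. The H3K4 and H3K36 methyltransferases, whose marks counteract PRC2, had 6 of 11 called higher in DMS153 and 7 in H209. KMT2A was at 36.7, 25.9 and 6.50 FPKM, KMT2C at 18.3, 35.7 and 6.07 and ASH1L at 34.8, 17.3 and 8.08. The medians of these lists were 1.06 and 0.75 for removal and 1.03 and 1.13 for the methyltransferases. Median ratio scaling left 3 and 2 of each called higher in DMS153 and H209, beside 4653 and 3905 of all 19066 tested genes. In the removal list, 1 gene was called lower in DMS153 under median ratio scaling and under TPM scaling. Of all tested genes, 4849 and 4422 were called lower under these.

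Genes of the RB and E2F cell cycle program, which includes EZH2 in textbook accounts, were higher in the carcinoma lines almost throughout. Of 34 tested, 32 were called higher in DMS153 and 33 in H209, with 0 lower and medians of 3.15 and 3.39. Higher calls made up 34% and 33% of all tested genes, and lower calls 16.4% and 14.9%. EZH2, at 4.22 and 4.24, lay above both medians. MKI67, the proliferation marker, was at 101, 49.9 and 0.962 FPKM in DMS153, H209 and MRC5, and TOP2A at 184, 60.8 and 4.07. GINS2, of the replicative helicase, was at 38.2, 63.0 and 0.768, and CCNE2, a cyclin, at 39.8, 58.1 and 1.17. TYMS, which makes thymidylate, was at 473 FPKM in H209 beside 38.1 in DMS153 and 21.0 in MRC5. Under every scaling at least 29 of the 34 were called higher in DMS153 and at least 30 in H209. Of all 19066 tested genes, the scalings called 4558 to 7660 higher in DMS153 and 3905 to 7939 in H209. The part of cell division in the PRC2 differences was not tested. CDKN2A, a cell cycle inhibitor known as a PRC2 target, was at 144, 128 and 18.7 FPKM and was called higher in both lines, and CDKN2B, at 8.81, 10.6 and 8.33 FPKM, was not called.

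For the HOX genes, classical targets of PRC2, the filter shaped the counts. All 14 HOX genes called higher in DMS153 had a mean below 1 FPKM in MRC5. HOXA6 stood at 0.253 there and HOXD4 and HOXD9 at 0. In H209, all called higher except HOXA4, HOXA7, HOXB2 and HOXB8 were also below 1 FPKM in MRC5. Genes this low in MRC5 passed only through the carcinoma lines and could only be called higher against MRC5. Of 39 HOX genes 31 were tested, and 14 were called higher and 1 lower in DMS153, and 20 higher and 0 lower in H209, with medians of 0.45 and 1.93. Over all tested genes, 34% and 33% were called higher and 16.4% and 14.9% lower, with medians of 0.44 and 0.46. The lower HOX calls in DMS153 numbered 4 under median ratio scaling (median 0.0015), 6 under quantile normalization (0.0011) and 4 under TPM scaling (0.042), with 14 higher under each. Of all 19066 tested genes, these scalings called 4849, 4340 and 4422 lower and 4653, 4558 and 5651 higher. In H209, median ratio scaling gave 19 higher and 2 lower, and quantile normalization 18 and 3. Over all tested genes they gave 3905 higher and 4724 lower, and 4351 and 3747. HOXD10 was at 83.4 and 34.9 FPKM in DMS153 and H209 and at 0.000816 in MRC5, and HOXD8 at 56.0, 38.5 and 0.0251. HOXB6 was the gene called lower in DMS153 as deposited, at 7.03 FPKM beside 15.5 in MRC5. Between the carcinoma lines 6 HOX genes were called higher and 11 lower in DMS153, beside 13.8% and 13.4% of all tested genes. TPM scaling, which put the median of all genes at -0.60, gave 2 and 14, beside 1782 and 6319 of all tested genes. HOXA7 (0.493 against 21.8 FPKM) and HOXC9 (0.0669 against 7.64) were lower in DMS153, and HOXB13 (2.76 against 0.0498) and HOXD12 (2.46 against 0.328) higher.

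Developmental transcription factors that PRC2 binds in embryonic stem cells moved both ways. Of 83 listed 57 were tested, with 32 called higher and 13 lower in DMS153 and 37 higher and 10 lower in H209, and medians of 1.496 and 1.77. Over all tested genes, 34% and 33% were called higher and 16.4% and 14.9% lower, with medians of 0.44 and 0.46. Those that were higher included neural factors: SOX1 was at 32.7, 43.4 and 0.00252 FPKM in DMS153, H209 and MRC5, and NEUROG3 at 36.8, 10.5 and 0.000951. IRX2 was at 51.2, 138 and 0.848 FPKM. Those that were lower included FOXF1, a mesenchymal lung factor, at 0.00510, 0.0210 and 116 FPKM, and TBX2 at 0.0214, 1.10 and 62.0. Between the carcinoma lines 9 were called higher and 22 lower in DMS153, beside 13.8% and 13.4% of all tested genes. TPM scaling, which put the median of all genes at -0.60, gave 6 and 28, beside 1782 and 6319 of all tested genes. NEUROD1 was at 6.55 FPKM in DMS153 and 72.0 in H209, and NEUROG2 at 0.201 and 23.5, while POU3F3 (5.12 and 0.0104) and IRX4 (6.45 and 0.721) were higher in DMS153. Several genes in the HOX and developmental lists were listed at 0 in MRC5, so the medians depend on the pseudocount. Genes below 1 FPKM in every MRC5 library, SOX1, NEUROG3 and IRX2 among them, passed the filter only through the carcinoma lines. The counts therefore do not describe PRC2 targets as a whole. No H3K27 methylation was measured, and whether these genes are PRC2 targets in these lines was not tested.

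The genes most like EZH2 across the 8 libraries were PPM1E, RP11-276H19.2, LMNB1, PKP2 and KCNMB2, each with a Pearson r of log2(FPKM + 1) of 1.00 when rounded. LMNB1, a nuclear lamina protein, was at 104, 100.2 and 2.73 FPKM in DMS153, H209 and MRC5, and PPM1E at 10.6, 10.7 and 0.129. Of 11126 genes compared, 2445 had an r above 0.95 with EZH2, so near-identical profiles were common with 3 lines. For EZH1 the closest were THAP6, UBE4A, R3HDM2, JAM3 and DENND2D, all with an r of 1.00 when rounded, and 789 genes passed 0.95. THAP6 was at 24.1, 12.9 and 9.20 FPKM. Within the complex, EZH2 correlated at 0.997 with MTF2 and 0.996 with PHF19, at 0.822 with EZH1 and at 0.279 with PHF1. SUZ12 was closest to JARID2, at 0.979, and EZH1 to RBBP7, at 0.941. These values describe the means of 3 lines measured in libraries of unequal composition.

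Neighbouring genes were read for each locus as a description. Against MRC5, 34% of all tested genes were called higher and 16.4% lower in DMS153, and 33% and 14.9% in H209. Around EZH2, within 500 kb, 11 other tested genes had median differences of 0.97 in DMS153 and 0.58 in H209, and 4 and 5 of them were called higher. EZH2 ranked second in its neighbourhood in both. EED, at 1.41 in H209, lay among 5 neighbours with a median of -1.68, of which 0 were called higher and 3 lower. MTF2, at 2.40 and 2.196, lay among 10 neighbours with medians of -0.22 and -0.48. RBBP4 had many neighbours that were higher too, with 15 of 31 neighbours called higher in DMS153 and 23 in H209, and medians of 0.98 and 1.40. Around SUZ12, 14 neighbours had medians of -0.04 and 1.00. Of these neighbours, 8 were called lower in DMS153 than in H209, beside 13.4% of all tested genes. Their median in that comparison was -1.06, beside -0.76 for SUZ12.

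The deposited Hi-C domains, on a 20 kb grid of hg19, placed EZH2 in the same way in every line. EZH2 lay inside 1 domain in DMS153 (chr7:148200000-148679998), in H209 (chr7:147960000-148679998) and in MRC5 (chr7:148180000-148679998), with the same end in all 3 lines, 98.6 kb from the gene. EED also lay inside 1 domain in all 3 lines, again with a shared end, chr11:86019998. RBBP4 lay inside 1 domain only in MRC5 (chr1:32860000-33339998), and in both carcinoma lines a domain end fell within the gene. From the gene midpoint, RBBP4 began at -17.5 kb and the DMS153 domain ended at -14.3 kb, closer than the 20 kb grid can resolve. PHF19 lay inside 1 domain in MRC5, spanned an end in DMS153 and lay in no domain in H209. Its DMS153 position was equally unresolved, with the gene from -10.8 kb and the domain from -8.8 kb. JARID2 was inside a domain in H209 and MRC5 and in none in DMS153, and RBBP7 was inside one in DMS153 only. EZH1, SUZ12, PHF1 and MTF2 lay in no domain in any line. Of the 10 genes, 3, 3 and 5 lay inside 1 domain in DMS153, H209 and MRC5, beside 39.7%, 40.9% and 40.2% of 19042 tested genes. With 1 library per line these are descriptions with no test, and 0, 2 and 3 of the 10 lay inside 1 domain when domains scored below the median of each line were left out.

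**Figure D5:**
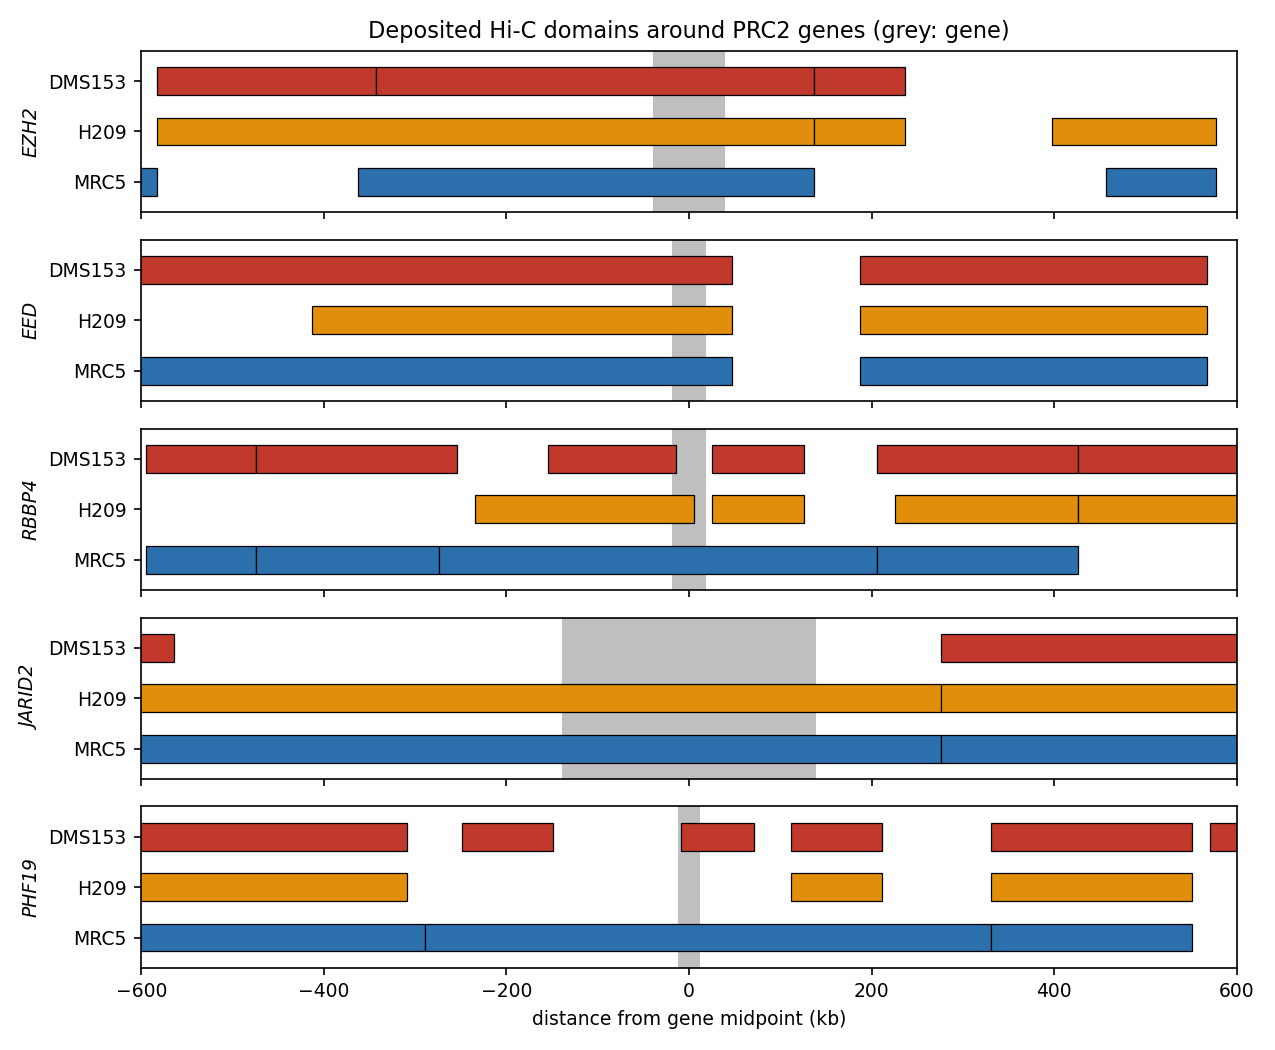
Deposited Hi-C domains within 600 kb of the midpoints of 5 PRC2 genes, with 1 bar per domain and the gene in grey, for 1 library per line. The domain around EZH2 ends at the same place in all 3 lines. The RBBP4 gene lies across domain ends in DMS153 and H209 but inside 1 domain in MRC5, and its overlap in DMS153 is finer than the 20 kb grid.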

How the data were processed

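RNA-seq of 8 libraries and Hi-C of 3 were used as the authors deposited them. The submitters' processing notes name TopHat2 2.1.0, Cufflinks 2.2.0, Bowtie2, HOMER 4.8 and hg19. Per the file headers, RNA values are FPKM with confidence bounds and a status for each gene, and all 80 values of the 10 genes had status OK. The deposited Hi-C domains carry a score whose meaning is not given in the sources used here. Strand, annotation and RNA selection are not given there either. Values were analysed as log2(FPKM + 1), a scale that understates the change of low genes, for genes with 1 FPKM in 2 or more libraries. They were fitted in limma 3.58.1 (R 4.3.3) with a mean per line from that line's own libraries (DMS153 3, H209 2, MRC5 3). The spread was estimated over all 8 libraries together (residual df 5), using eBayes with a trend and Benjamini-Hochberg adjustment. The fit was tested on simulated data. FPKM is relative to the mapped fragments of a library, while the microRNA share given here is one of summed FPKM and not of fragments. The median of all genes against MRC5 was 0.44 in DMS153 and 0.46 in H209. Whether small RNA lowers the FPKM of other genes was not tested. Where a symbol was listed more than once, the row with the higher mean was used. The members and lists were chosen with earlier results of these data known. Named list genes are those called with the 2 largest differences per direction and at least 1 FPKM in the higher line, and other members were named where their value bore on a role. Genes most alike are the 5 highest in r among those with a mean of at least 5 FPKM.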

Additional observations from a re-analysis of the deposited data

How the results depend on the processing

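Over 20 alternatives (pseudocounts, filters, scalings, variance models, a replicate block and each library left out), 566 of 600 fold changes of the 10 genes kept their sign and call, 9 lost a call, 10 gained one and 15 changed sign. The cause of these changes was not tested. Median ratio scaling gave 4849 genes lower in DMS153 and, in H209, 3905 higher, 4724 lower and 4 PRC2 genes higher, with EZH1 at -0.21, RBBP7 at -0.14 and PHF1 at -0.43. In DMS153 against MRC5, PHF1 changed sign without small RNA and mitochondrial genes (0.27), without DMS153 replicate 1 (0.062) and without MRC5 replicate 2 (0.026). In DMS153 against H209, TPM scaling gave 6319 genes and 4 PRC2 genes lower, with RBBP7 at -0.37, MTF2 at -0.43 and PHF19 at -0.54. Pseudocounts of 0.1 and 0.01 gave 1 PRC2 gene lower there. EZH2, near 0 in that comparison, changed sign under median ratio scaling (0.097), quantile normalization (0.012), without small RNA and mitochondrial genes (0.051), with the replicate block (0.028), without DMS153 replicate 3 (0.019) and without H209 replicate 1 (0.013).

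EZH2 ran from -0.0695 to 0.0186 over the single libraries left out. Leaving out each library in turn gave 6 to 7 PRC2 genes higher in DMS153, 7 in H209, and 0 to 1 lower in DMS153 against H209. The MTF2 to JARID2 difference in log2 between H209 and MRC5 ran from -0.11 to 0.16, and changed sign without H209 replicate 1 (-0.11) and without MRC5 replicate 3 (-0.030). Leaving out domains scored below the median of each line, 0 genes lay inside 1 domain in DMS153 and 3 in MRC5. Replicate numbers are shared between lines. Deviations of same-numbered libraries from their line means correlated between -0.012 and 0.123, and those of differently numbered libraries between -0.123 and 0.054. With so few libraries per line, deviations from the line mean depend on each other. These values therefore cannot decide whether the numbers pair the samples. With 3 pairs, not every library correlated best with its own number. With the replicate block, 6, 7 and 0 PRC2 genes were called higher in the 3 comparisons, as without it. With no counts in the files, depth limits precision only as far as the deposited intervals show.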
